A study of Mus musculus with 4 samples.

Results

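Stefins and cystatins are protein inhibitors of cysteine proteases, and 7 of their genes were followed here in epidermal keratinocytes of newborn mice with both Mettl14 alleles floxed and of controls. The genes are the stefin A copies Stfa1, Stfa2, Stfa3 and Stfa2l1, the stefin B gene Cstb, and the genes of the secreted inhibitors cystatin M/E (Cst6) and cystatin C (Cst3). They were taken by symbol from a table of 45803 symbols, and all 7 were listed in it. The list was selected on the difference in FPKM between genotypes in these same libraries, so that difference is described below for the members and not tested. The 4 libraries came from epidermal keratinocytes at postnatal day 0. Control mice (2 libraries) carried the Cre transgene K14Cre and were heterozygous for the floxed gene (Mettl14F/+), and cKO mice (2 libraries) carried the same transgene with both alleles floxed (Mettl14F/F). Both groups therefore carry K14Cre, whose keratin 14 promoter is active in basal keratinocytes, and the control group has 1 floxed allele. The labels do not say that libraries came from separate animals, so the spread between libraries may be technical.

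Cystatins lie across the active site of papain-like proteases, the cysteine cathepsins of lysosomes, and block it reversibly. Stefins stay inside the cell, while cystatins of type 2 carry a signal sequence and are secreted. In the epidermis stefin A is a component of the cornified envelope, the crosslinked protein shell of the outermost cells, and cystatin M/E restrains legumain and cathepsin L, a protease that can activate the crosslinking enzyme transglutaminase 3. Loss of cystatin M/E in mice causes severe ichthyosis. Mice have a cluster of stefin A genes where humans have a single gene. Mettl14 encodes a subunit of the enzyme that writes N6-methyladenosine on RNA.

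The stefin A copies are shown first because their levels and their differences between genotypes parted although their sequences are alike. The first coding exon of Stfa2 (chr16:36408250-36408333, minus strand, GRCm38, GENCODE M21), Stfa2l1 (chr16:36156837-36156920, plus strand) and Stfa3 (chr16:36455281-36455364, minus strand) has 84 bases in each gene. Capitals mark bases that differ from Stfa2 at the same place, 6 in Stfa2l1 and 14 in Stfa3.
Stfa2: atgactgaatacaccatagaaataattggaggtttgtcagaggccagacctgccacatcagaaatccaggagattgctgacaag
Stfa2l1: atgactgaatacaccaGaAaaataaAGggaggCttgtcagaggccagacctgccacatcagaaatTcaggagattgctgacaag
Stfa3: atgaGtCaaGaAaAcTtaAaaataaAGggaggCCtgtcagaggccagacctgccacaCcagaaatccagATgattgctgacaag

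Stfa1 (chr16:36277196-36277261, plus strand) has a first coding exon of 66 bases, as does BC100530 (chr16:36367436-36367501, minus strand), a relative in the same cluster. Here capitals mark the 3 bases of BC100530 that differ from Stfa1.
Stfa1: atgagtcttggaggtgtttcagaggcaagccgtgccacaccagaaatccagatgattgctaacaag
BC100530: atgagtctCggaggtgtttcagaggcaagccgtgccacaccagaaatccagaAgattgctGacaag

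Over the whole coding sequence, Stfa2 and Stfa2l1 were identical at 96.4% of 309 paired bases in a global alignment, with 11 mismatches. Stfa2 and Stfa3 were identical at 80.9% of 309 bases and Stfa2 and Stfa1 at 79.0% of 291. Stfa1 was nearest to BC100530, at 97.9% of 291 bases. Between the stefin A members and Cstb identity lay between 56.9% and 62.7%. Likeness of this kind bears on the measurement, because a read from a shared stretch cannot be given to 1 copy. Of all 50-base windows of the Stfa2 transcript, 15.9% occurred exactly in a transcript of another gene, and for Stfa2l1 it was 24.6%. For Stfa1 the share was 25.4%, with matches in BC100530 and BC117090. The transcripts of Stfa3, Cstb, Cst6 and Cst3 had no shared 50-base window. With 100-base windows 1.9% of Stfa1 was shared and none of the other members, and with 150 bases no member shared any. The sources used here do not give the read length or the treatment of reads with several matches.

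The promoters of the stefin A members are shown because 2 of these genes were higher in both cKO libraries and 2 were not. RefSeq (GRCm38.p6) gave windows from 250 bases before to 50 after the gene start for 5 of the 7 members, and Cstb and Cst6 were without an entry. The windows were chr16:36408314-36408613 (minus strand) for Stfa2, chr16:36156561-36156860 (plus) for Stfa2l1, chr16:36276898-36277197 (plus) for Stfa1 and chr16:36455343-36455642 (minus) for Stfa3. Capitals mark the longest run of bases common to all 4 windows.
Stfa2: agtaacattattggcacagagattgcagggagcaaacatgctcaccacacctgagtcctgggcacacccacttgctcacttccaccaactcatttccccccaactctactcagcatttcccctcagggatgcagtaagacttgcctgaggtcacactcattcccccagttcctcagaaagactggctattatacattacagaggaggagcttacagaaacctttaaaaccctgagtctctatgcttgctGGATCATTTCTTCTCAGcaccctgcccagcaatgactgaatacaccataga
Stfa2l1: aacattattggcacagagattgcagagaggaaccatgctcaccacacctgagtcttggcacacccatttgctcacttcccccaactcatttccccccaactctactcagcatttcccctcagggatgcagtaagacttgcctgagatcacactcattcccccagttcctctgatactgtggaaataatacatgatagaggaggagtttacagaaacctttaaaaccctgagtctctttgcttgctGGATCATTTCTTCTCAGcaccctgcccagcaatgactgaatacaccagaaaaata
Stfa1: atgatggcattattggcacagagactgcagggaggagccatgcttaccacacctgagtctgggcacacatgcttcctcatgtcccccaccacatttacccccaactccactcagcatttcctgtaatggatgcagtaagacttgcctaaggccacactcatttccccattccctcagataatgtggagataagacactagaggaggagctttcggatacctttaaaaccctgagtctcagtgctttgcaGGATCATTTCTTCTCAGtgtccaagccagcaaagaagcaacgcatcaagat
Stfa3: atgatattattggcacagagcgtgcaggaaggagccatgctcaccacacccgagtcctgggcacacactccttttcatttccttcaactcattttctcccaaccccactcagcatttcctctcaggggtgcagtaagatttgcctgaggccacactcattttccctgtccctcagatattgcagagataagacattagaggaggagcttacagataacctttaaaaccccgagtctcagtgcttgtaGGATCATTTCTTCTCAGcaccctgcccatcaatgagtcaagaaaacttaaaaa

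The common run, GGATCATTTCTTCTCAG, has 17 bases and begins 1 base before the gene start in Stfa1 and Stfa2, 3 bases before it in Stfa3 and 5 before it in Stfa2l1. It was found on either strand in 6 of 32851 RefSeq promoter windows (0.0183%), all on chromosome 16. The 2 windows beside those of the members belong to the RefSeq symbols Csta3 and Cstdc5. Neither symbol is among the GENCODE names of cluster genes used below, and whether they are other names of those genes was not checked. The letters TTTAAAA occurred in all 4 stefin A windows and in 8.74% of all windows, while TATAAA, the usual TATA box, was in none of the 5 member windows and in 13.6% of all. The AP-1 letters TGANTCA, which read the same on both strands at their fixed positions, were in the Stfa3 window and in none of the other 4, against 7.81% of all windows. That match overlaps the Stfa3 start codon, so it lies after the gene start and in coding sequence. TTTAAAA and the common run were chosen after the sequences were seen. Promoter windows of Stfa2 and Stfa2l1 were identical in 90.5% of alignment columns, and the other pairs in 78.8% to 80.9%. Stfa2 and Stfa2l1 were also the copies whose cKO libraries both lay above both control libraries, as for 16.2% of all tested genes. The list was chosen on that contrast and Stfa2l1 was near the detection limit, so nothing is read from the match. No test bears on it.

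Depth and the targeted gene set the frame for all values. The low values of short single-transcript genes implied between 16896206 and 25697690 reads or fragments per library. Mettl14 itself was listed at 7.00 and 6.40 FPKM in control 1 and 2 against 5.89 and 3.79 in cKO 1 and 2 (FPKM is reads or fragments scaled to transcript length and library depth). Within numbers 1 and 2 the cKO value was thus 0.841 and 0.592 of control. The value covers whole transcripts, the deleted part was not measured apart from the rest, and most of the Mettl14 signal remained in the cKO libraries. The difference between genotypes is also given within number 1 (cKO 1 against control 1) and within number 2. No gene of 13817 tested passed limma's moderated test at an adjusted p under 0.05 (0.0%), 686 (4.96%) had an unadjusted p under 0.05, and no other tool was run. A gene was tested when it reached 1 FPKM in at least 2 libraries, and all 7 members did. For Stfa2l1 this rested on control 2 and both cKO libraries, so it passed partly through the group where it was higher.

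Levels of the members ran from near the detection limit to the top of the table. Stfa3 was the most abundant and ranked 6, 3, 5 and 3 among all symbols in control 1, control 2, cKO 1 and cKO 2. It alone took 1.42% and 1.98% of the summed FPKM in control against 1.57% and 1.64% in cKO. Stfa1 followed, then Stfa2, Cst3, Cstb, Cst6 and, far lower, Stfa2l1. Each gene was above the next in all 4 libraries except at 1 step: Stfa2 lay above Cst3 in 3 libraries and below it in control 1, and the ranges of that pair overlapped. FPKM divides by the annotated transcript length, which matters for Cst6. Its listed transcript has 3951 bases, of which 447 are coding, and a shorter true transcript would raise its value; this was not tested.

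**Figure D1:**
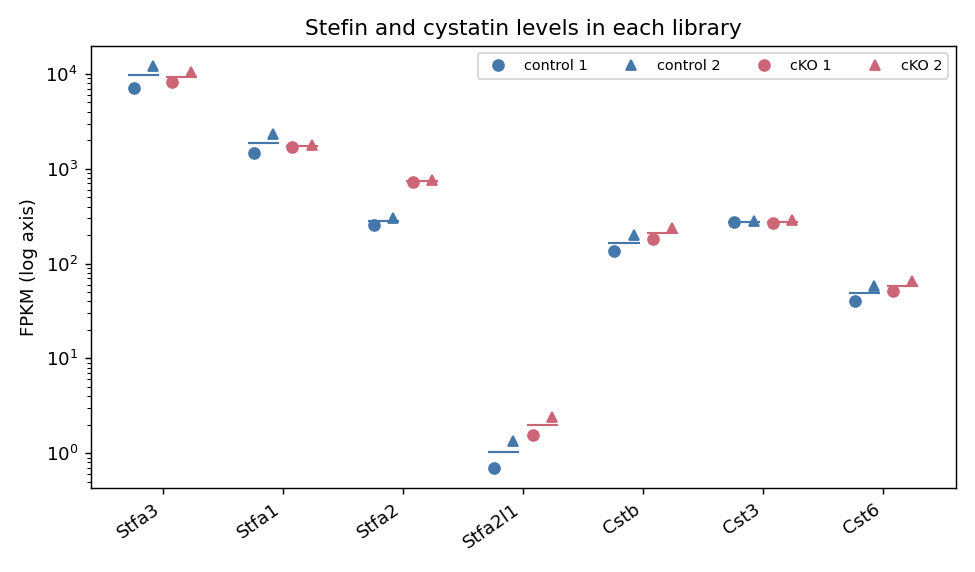
FPKM of the 7 members on a log axis; circles are libraries numbered 1, triangles those numbered 2, blue control and red cKO, and short lines are group means of 2 libraries. Stfa2 is the only member at high level whose cKO libraries (732 and 767) lie well above both control libraries (257 and 299.8).

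Stfa2, an intracellular stefin A copy, stood out among the members. It measured 257 and 299.8 FPKM in control 1 and 2 against 732 and 767 in cKO 1 and 2. Both cKO libraries lay above both control libraries, and libraries of a group were close to each other. The means were 278 ± 30.3 in control and 749 ± 24.7 in cKO (SD, n = 2 each), a ratio of 2.69, with 2.85 within number 1 and 2.56 within number 2. On the log2(FPKM + 1) scale, which understates changes of low genes, the limma difference was 1.43 ± 0.31 (SE), and it lay between 1.32 and 1.54 when each library was left out in turn. Among all tested genes 16.2% had both cKO libraries above both control libraries and 16.6% had both below. Because the list was chosen with this contrast known, nothing is read from the members' counts against these shares. In libraries of mixed cells, more expressing cells and more RNA per cell cannot be told apart.

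Stfa2l1, the copy closest to Stfa2, was at the edge of detection. It was listed at 0.70 and 1.34 FPKM in control 1 and 2 against 1.57 and 2.44 in cKO 1 and 2. Both cKO libraries lay above both control libraries, but cKO 1 was near control 2. These values stand for about 5, 13, 11 and 26 reads, with exact 95% Poisson intervals of 1.62 to 11.7, 6.92 to 22.2, 5.49 to 19.7 and 17.0 to 38.1, which cover counting error only. The log2 difference was 0.58 ± 0.30, with 0.60 and 0.56 within numbers 1 and 2. It was 0.37 without cKO replicate 2, 0.35 without control replicate 1, and 0.94 with a pseudocount of 0.1. Stfa2 was 367, 224, 466 and 314 times as high as Stfa2l1 in control 1, control 2, cKO 1 and cKO 2. The part that reads of Stfa2 have in the Stfa2l1 values was not tested.

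Stfa1 and Stfa3, the abundant stefin A copies, did not part by genotype. Stfa1 measured 1450.4 and 2334 FPKM in control 1 and 2 against 1713 and 1788 in cKO 1 and 2. Stfa3 measured 7165 and 12117 in control against 8300.5 and 10369.7 in cKO. For both genes the cKO libraries fell between the control libraries, so the groups overlapped and the control libraries held the larger spread. On the log2 scale Stfa1 differed by -0.07 ± 0.53, which was 0.24 for the libraries numbered 1 and -0.38 for those numbered 2. For Stfa3 it was -0.01 ± 0.99, with 0.21 and -0.22. The sign of both turned to positive without control replicate 2 (0.27 for Stfa1 and 0.37 for Stfa3), and for Stfa3 also without cKO replicate 1 (0.15). It was negative and larger without control replicate 1, at -0.41 and -0.39, and for Stfa3 at -0.17 without cKO replicate 2.

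Within a library the share of each copy does not depend on scaling between libraries. Stfa2 amounted to 3.59 and 2.47 FPKM per 100 of Stfa3 in control 1 and 2 and to 8.82 and 7.39 in cKO 1 and 2. Per 100 of Stfa1 it was 17.7 and 12.8 in control against 42.7 and 42.9 in cKO. Both ratios were higher in each cKO library than in either control library. The 4 stefin A members together took 1.76% and 2.41% of all summed FPKM in control against 2.03% and 2.05% in cKO, with cKO between the control libraries. The total of these copies thus overlapped between genotypes, while the ratios of Stfa2 to Stfa3 and to Stfa1 did not. These ratios restate the Stfa2 difference, which was known when the list was chosen, and are no separate result.

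**Figure D2:**
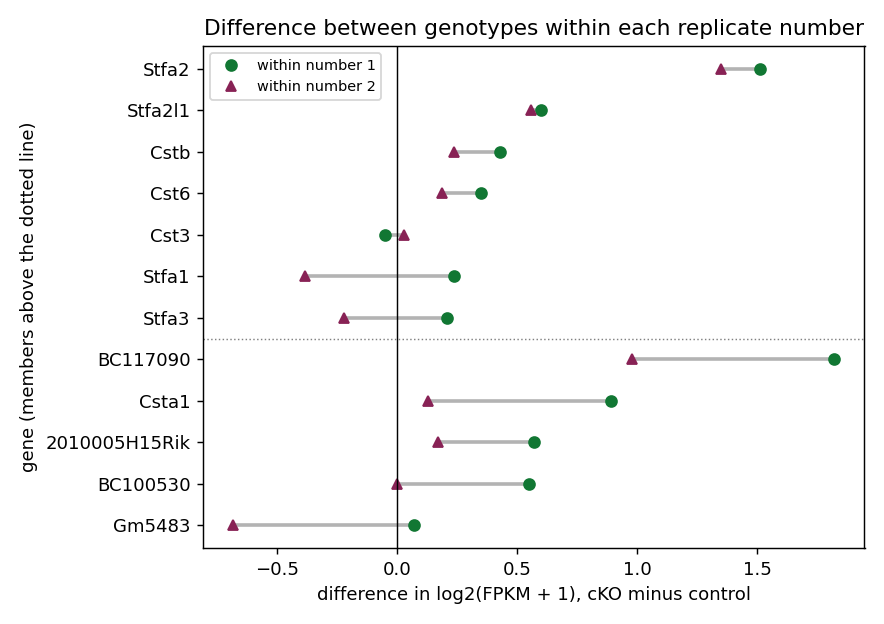
Difference in log2(FPKM + 1), cKO minus control, within replicate number 1 (circles) and within number 2 (triangles) for the members, above the dotted line, and 5 relatives of the stefin A cluster below it. Stfa2 (1.51 and 1.35) and BC117090 (1.82 and 0.98) lie farthest to the right, and Stfa1 and Stfa3 have 1 point on each side of 0.

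Cstb, which encodes the widely expressed intracellular inhibitor stefin B, measured 135 and 198 FPKM in control 1 and 2 against 182 and 235 in cKO 1 and 2. The libraries numbered 2 were higher in each group, and the groups overlapped because control 2 lay above cKO 1. Its log2 difference was 0.34 ± 0.31, positive within number 1 (0.43) and number 2 (0.24). Leaving out control 1 or control 2 moved it to 0.06 or 0.61, and leaving out cKO 1 or cKO 2 to 0.52 or 0.15.

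Cst6, the gene of secreted cystatin M/E, had the same order of libraries as Cstb. It measured 40.1 and 57.5 FPKM in control 1 and 2 against 51.5 and 65.5 in cKO 1 and 2, so that the groups overlapped. The log2 difference of 0.27 ± 0.27 was made of 0.35 within number 1 and 0.19 within number 2. It came to 0.01 or 0.52 when control 1 or control 2 was left out, and to 0.44 or 0.10 when cKO 1 or cKO 2 was.

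Cst3, the gene of secreted cystatin C, made by nearly all cell types, was the steadiest member. It measured 275 and 279.6 FPKM in control 1 and 2 against 266 and 286 in cKO 1 and 2, and the cKO libraries enclosed both control libraries. Its log2 difference was -0.01 ± 0.27, with -0.05 and 0.03 within numbers 1 and 2, and its sign turned without control replicate 2 (0.01) and without cKO replicate 1 (0.05). Nearly all of it came from 1 transcript of 860 bases (264 to 285 FPKM). A second, noncoding transcript was listed at 1.44 to 2.57 FPKM and another at 0 in all libraries. Each other member was listed with a single transcript.

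Over all 7 members the median log2 difference was 0.27, against -0.03 over all genes tested. It was 0.01 and 0.52 without control replicates 1 and 2, and 0.44 and 0.10 without cKO replicates 1 and 2. Within both replicate numbers 4 members were higher in cKO and none was lower in both, where 31.8% of tested genes were higher in both and 37.6% lower in both. The remaining 3 members, Stfa1, Stfa3 and Cst3, changed sign between the numbers. In unscaled FPKM all 7 members were higher in the library numbered 2 than in that numbered 1, in each group. The same held for 46.6% of tested genes, and 33.0% were lower in number 2 in both groups. Nothing is read from this count, because the members were chosen with values of these libraries known. As a share of all summed FPKM, Stfa2 was lower in number 2 in control (0.0509% and 0.0490%) and in cKO (0.138% and 0.121%). So was Cst3 (0.0544% and 0.0457% in control, 0.0503% and 0.0453% in cKO), and Stfa1 in cKO alone (0.324% and 0.283%). Stfa3, Stfa2l1, Cstb and Cst6 were still higher. On the unscaled log2(FPKM + 1) scale the step from number 1 to number 2 was largest for Stfa3 and Stfa1 in control (0.76 and 0.69). It was smallest for Cst3 in control (0.02). In cKO it ran from 0.06 for Stfa1 and 0.07 for Stfa2 to 0.42 for Stfa2l1. Basal keratinocyte markers were also higher in number 2 in both groups for 7 of 7 genes in unscaled FPKM. As a share of summed FPKM, Trp63 and Itga6 among them were lower in number 2 in both groups. Of 6 tested suprabasal markers 1 (Lor) was higher in number 2 in both groups and 5 were lower. Krt10, the most abundant of them, was listed with 15342 and 5382 FPKM in control 1 and 2 against 12142 and 6217 in cKO 1 and 2. The labels do not say what the replicate numbers stand for.

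The stefin A copies lie in a cluster on chromosome 16 that also holds relatives outside the member list. From left to right on GRCm38 the protein-coding genes are Csta1 (starting at 36119946), Stfa2l1, Gm5483, Gm5416, 2010005H15Rik, Stfa1, BC117090, BC100530, Stfa2 and Stfa3 (ending at 36455392). Of 12 symbols looked up for relatives, 7 were in the table and 5 reached the filter. BC100530 was as abundant as the main members, with 2850.0 and 4822 FPKM in control 1 and 2 against 4174 and 4815 in cKO 1 and 2, and the groups overlapped. Csta1, at 46.0 and 91.8 in control against 86.1 and 100.6 in cKO, overlapped too. BC117090 measured 6.54 and 12.5 in control against 25.7 and 25.6 in cKO, without overlap.

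BC117090 was the relative with the largest difference, at 1.40 ± 0.31 (limma adjusted p = 0.959). It was 0.98 without control replicate 1, 1.82 without control replicate 2, and 1.40 without either cKO replicate. Its coding sequence was identical to that of BC100530 at 96.2% of 288 bases, and BC117090 amounted to 0.229 and 0.259 FPKM per 100 of BC100530 in control and to 0.615 and 0.532 in cKO. The windows of 50 bases that it shares with other transcripts came to 33.7%, so its reads and those of its copies may be split. Csta1 had a difference of 0.51 ± 0.36 (limma adjusted p = 0.959), which was 0.02 without control replicate 1 and was 1.00 without control replicate 2. The others had smaller differences: 2010005H15Rik 0.37 ± 0.27, BC100530 0.27 ± 0.71 and Gm5483 -0.31 ± 0.30 (limma adjusted p from 0.959 to 0.973). 2010005H15Rik, near the filter at 1.24 and 2.16 FPKM in control against 2.32 and 2.55 in cKO, did not overlap either. With BC117090, 2 of 5 tested relatives thus had both cKO libraries above both control libraries, against 16.2% of all tested genes. The relatives too were listed with earlier results of these data known, so nothing is read from this count. The sign of BC100530 turned without control replicate 1 (-0.11) and that of Gm5483 without control replicate 2 (0.07), and 2010005H15Rik lay at 0.12 and 0.62 without control replicates 1 and 2. Gm5416 (0.13 to 1.02 FPKM) and Gm4758 (0 to 0.13) stayed under the filter. Gm5416 went the other way, at 0.39 and 1.02 in control against 0.20 and 0.13 in cKO.

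**Figure D3:**
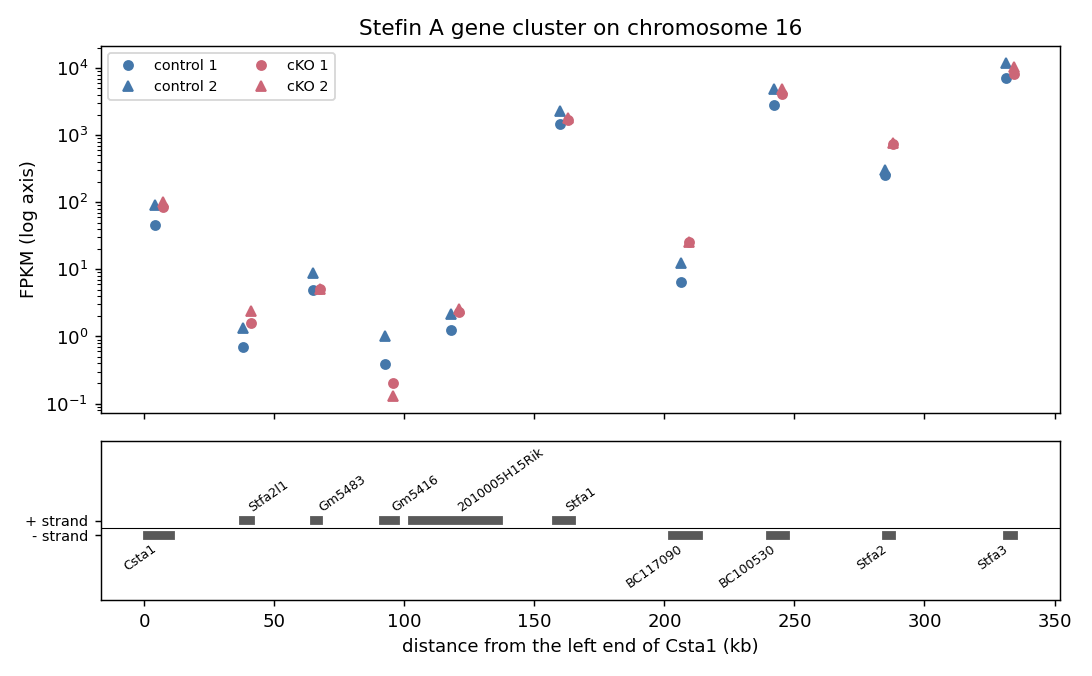
Upper panel, FPKM on a log axis of the 10 protein-coding stefin A cluster genes by library (blue control, red cKO, circles number 1, triangles number 2); lower panel, each gene to scale on its strand by distance in kb from the left end of Csta1. Stfa2 and BC117090 have cKO points well above control, while their neighbours Stfa3 and BC100530 overlap.

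Stfa2 lies between BC100530 and Stfa3, the most abundant genes there, and both of these overlapped between genotypes. Summed over the 10 genes the cluster took 2.33% and 3.22% of all summed FPKM in control 1 and 2 against 2.84% and 2.83% in cKO 1 and 2. Within that sum Stfa2 took 2.18% and 1.52% in control against 4.87% and 4.29% in cKO, and Stfa3 60.8% and 61.5% in control against 55.2% and 58.0% in cKO. BC100530 took 24.2% and 24.5% against 27.8% and 26.9%. The shares of the groups did not overlap for any of the 10 genes, so a lack of overlap in these shares singles out no gene. Shares of 1 sum are not independent of each other.

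Other branches of the cystatin family stayed under the filter or were listed at 0. Of 8 further type 2 cystatin genes in the table, Cst7 reached at most 0.88 FPKM, and 7 (Cst8, Cst9, Cst10, Cst11, Cst12, Cst13 and Cstl1) were listed at 0 in all libraries. Of the kininogen and fetuin genes, Fetub, Ahsg and Kng2 stayed at or under 0.41 FPKM, and Kng1 and Hrg were listed at 0. Krt1, a main keratin of suprabasal cells, was also listed at 0 in all libraries, so a 0 in this table does not show that a gene was not expressed. Cst3 and Cst6 were thus the type 2 genes that reached 1 FPKM.

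The proteases that these inhibitors bind were compared next, as a list of 10 measured cysteine cathepsins with legumain. None passed limma's test, 3 were higher and 5 lower within both replicate numbers, near the 31.8% and 37.6% of all tested genes. Both cKO libraries lay above both control libraries for 2 (Ctsc and Ctsh) and below both for 2 (Ctsw and Ctsf). Among all tested genes 16.2% had both above and 16.6% both below. The list's median log2 difference was -0.14, and its sign changed when control 2 (0.06) or cKO 1 (0.11) was left out. Ctsc, the gene of cathepsin C, which activates serine proteases of immune cells, measured 109.8 and 114 FPKM in control 1 and 2 against 162 and 164 in cKO 1 and 2. Its libraries did not overlap, and its difference was 0.54 ± 0.23 (limma adjusted p = 0.959). Ctsh, an aminopeptidase, measured 36.5 and 42.2 in control against 44.8 and 56.3 in cKO, also without overlap (0.35 ± 0.23, from 0.18 without cKO replicate 2 to 0.51 without cKO replicate 1, limma adjusted p = 0.959). Ctsw, a cathepsin of cytotoxic lymphocytes, was at 23.5 and 26.4 in control against 15.7 and 18.1 in cKO (-0.54 ± 0.20, limma adjusted p = 0.959). Ctsf was at 11.5 and 11.9 in control against 10.3 and 10.3 in cKO (-0.17 ± 0.19, limma adjusted p = 0.959).

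The known partners of cystatin M/E overlapped between genotypes. Ctsl, the gene of cathepsin L, measured 57.9 and 68.9 FPKM in control 1 and 2 against 58.6 and 65.9 in cKO 1 and 2. Lgmn, the gene of legumain, measured 20.2 and 28.8 in control against 17.6 and 27.2 in cKO. Their differences were -0.02 ± 0.22 and -0.14 ± 0.30 (limma adjusted p = 0.992 and 0.968), and both signs turned without control replicate 2 (0.10 and 0.11) and without cKO replicate 1 (0.06 and 0.17). The lysosomal proteases Ctsb, Ctsz and Ctso differed by 0.12 ± 0.24, -0.14 ± 0.33 and -0.38 ± 0.29, with limma adjusted p from 0.959 to 0.972. Ctsb lay at -0.07 without cKO replicate 2 and Ctsz at 0.29 without cKO replicate 1, while Ctso (0.58 to 1.67 FPKM) was near the filter. Ctss, a cathepsin of antigen-presenting cells, differed by -0.44 ± 0.31 (limma adjusted p = 0.959; -0.13 without cKO replicate 1 and -0.20 without control replicate 2), and Ctsk stayed under the filter at 0.62 to 1.03 FPKM.

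Transglutaminases crosslink stefin A and other proteins into the cornified envelope, and 5 of their genes were measured. Of these 4 were higher in cKO within both numbers, as were 31.8% of all tested genes. Both cKO libraries lay above both control libraries for 3 (Tgm3, Tgm5 and Tgm2), against 16.2% of all tested genes. Tgm2 measured 0.75 and 1.03 FPKM in control 1 and 2 against 1.04 and 1.5 in cKO 1 and 2, so cKO 1 was near control 2. Tgm2 reached 1 FPKM in control 2 and both cKO libraries. It thus passed the filter partly through the group where it was higher. The list was chosen with earlier results of these data known, so nothing is read from these counts. Tgm3 measured 49.9 and 47.9 FPKM in control 1 and 2 against 112 and 123 in cKO 1 and 2, with no overlap and a difference of 1.25 ± 0.21 (limma adjusted p = 0.959). Tgm1, the membrane-bound enzyme of keratinocytes, measured 72.9 and 43.6 in control against 97.4 and 71.6 in cKO (0.56 ± 0.32, limma adjusted p = 0.959), and lay at 0.19 without control replicate 2 and 0.92 without control replicate 1. Tgm5 measured 27.4 and 19.8 in control against 33.1 and 29.0 in cKO (0.40 ± 0.24, limma adjusted p = 0.959; 0.17 without control replicate 2 and 0.62 without control replicate 1). Tgm2 and Tgm6 were close to the filter, with differences of 0.26 ± 0.27 and 0.00 ± 0.32 (limma adjusted p = 0.959 and 1.00), and Tgm7 was under the filter.

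**Figure D4:**
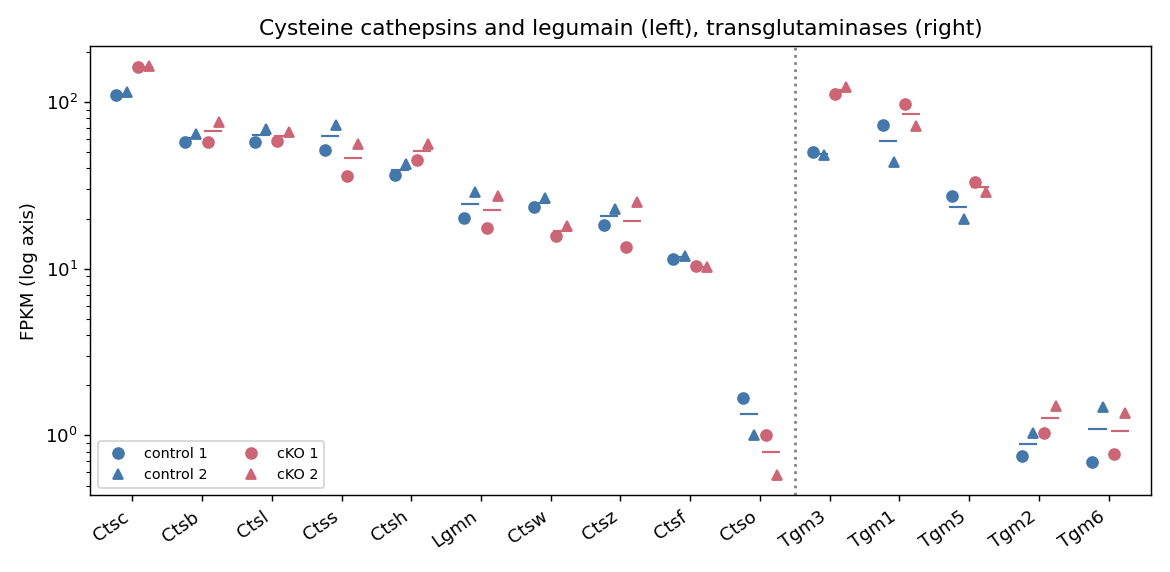
FPKM on a log axis of 10 cysteine cathepsin and legumain genes, left of the dotted line, and 5 transglutaminases, right of it; symbols and colours as in the plot of member levels, short lines are means of 2 libraries. Ctsc, Ctsh, Tgm3, Tgm5 and Tgm2 have both cKO points above both control points, and Ctsw and Ctsf have both below. The rest overlap, Ctsl and Lgmn among them.

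Marker genes of keratinocytes and other cell types were also compared. Stefin A copies are also expressed by neutrophils, so neutrophil genes bear on them. Of 14 neutrophil markers, 11 stayed under 1 FPKM in every library, among them the granule genes Mpo, Ltf, Ngp and Camp, and Elane was listed at 0. Cxcr2 and Mmp9 had both cKO libraries above both control libraries, and Camp, Mmp8 and Itgam had both below. Of these only Itgam was tested. Cxcr2 measured 0.02 and 0.04 FPKM in control against 0.19 and 0.23 in cKO. Mmp9 measured 0.17 and 0.36 in control against 1.03 and 0.55 in cKO. Ly6g, Cd177 and Mpo were above 0 in cKO 2 only. The list summed to 16.8 to 21.2 FPKM in control and 14.8 to 18.3 in cKO, mostly from Fcgr3 and Itgam, which other myeloid cells also express. Basal keratinocyte markers (7) summed to 3836 to 4950 FPKM in control and 2453 to 3828 in cKO, and suprabasal markers (7, of which Krt1 was listed at 0) to 8546 to 20780 and 8812 to 16862. T cell markers (5) summed to 77.5 to 88.4 in control and 38.5 to 45.5 in cKO, with all 5 lower in cKO within both numbers. So were 7 of 7 basal and 11 of 12 Langerhans cell and macrophage markers, against 37.6% of all tested genes. Langerhans cell and macrophage markers (12), whose cells express Ctss and Cst3, summed to 638 to 813 and 409 to 646. Melanocyte markers (5) came to 436 to 506 against 389 to 409.8 and fibroblast markers (5) to 112 to 113 against 82.4 to 89.2. The part of these cell types in the values of Ctsw, Ctss or the members was not tested.

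The members shared their number of exons but not their transcript length. The main transcript of each of the 7 has 3 exons, which 6.3% of 11705 tested protein-coding genes share, the median being 9 exons. Genes with exactly 3 exons (738) had a median log2 difference of 0.12, with 0.12 and 0.18 within the numbers. The median was 0.03 for the 5315 genes with 4 to 10 exons and -0.06 for the 3240 with 11 to 20. It was -0.15 for the 1435 genes that have 21 exons or more. Transcripts of the stefin A members ran from 412 to 514 bases, against 603 for Cstb, 860 for Cst3, 3951 for Cst6 and a median of 2821 over tested genes. The letters GGACT, a common form of the N6-methyladenosine motif, occurred 6 times in the Cst6 transcript, once each in Stfa2, Stfa2l1 and Cst3, and not in Stfa1, Stfa3 or Cstb. Among 256 tested genes with transcripts no longer than that of BC100530, 57.0% had no match. BC117090, the relative with the largest difference, had none either. No methylation was measured in these libraries.

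Genes with the most similar pattern over the 4 libraries were found by the distance between deviations of log2(FPKM + 1) from each gene's own mean, among 7118 other genes with a mean of at least 10 FPKM. For Stfa3 they were Cycs, Haus1 and Gata3 (distances 0.0304, 0.0321 and 0.0609, against a median of 0.607 over all). Gata3, a transcription factor of the skin barrier, measured 19.4 and 33.0 FPKM in control against 21.8 and 29.2 in cKO. For Cstb they were Zdhhc7, Commd6 and Snhg8 (0.0337, 0.0350 and 0.0398, median 0.572), and for Cst3 Arhgap27, Smyd2 and Ccdc6 (0.0128, 0.0185 and 0.0219, median 0.425). With 4 libraries many genes can come this close, so the names describe a pattern only.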

How the data were processed

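RNA sequencing measured transcripts in 4 libraries. Per the submitters' processing notes fastp, HISAT2 and HTSeq were used with build GRCm38; the sources used here give no roles, versions or annotation release. The authors deposited 110295 transcript values without a named unit, here taken as FPKM because value times GENCODE M21 length, summed and divided by 1000, came to nearly the same total in each column (1015550 to 1021998). FPKM and RPKM cannot be told apart. WT columns were matched to the control libraries by number. Symbols turned into dates (162) were restored by transcript ID.

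FPKM were summed per symbol and tested on log2(FPKM + 1) with limma 3.58.1 (trend, genotype only, Benjamini-Hochberg, 2 residual degrees of freedom) in R 4.3.3; the code was checked on simulated data. Low values were whole multiples of 1 read, within 0.2 reads, in 94.3% to 95.2% of cases, which gave the depths; edgeR and DESeq2 were not used. Alignments (Biopython 1.88: match 1, mismatch -1, gap -3 and -1) and window searches used GENCODE M21 transcripts. No protein comparison was made. The members and lists were chosen with earlier results of these data known. Genes named are the members, all tested genes of the partner and family lists, Mettl14 and the top gene of a marker list. The 3 genes nearest in pattern to Stfa3, Cstb and Cst3 are named too, and marker lists are given by their sums. Itgam and the other neutrophil genes named beside Fcgr3 were added after their values were seen.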

Additional observations from a re-analysis of the deposited data

How the results depend on the processing

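A filter at 5 FPKM, no filter, a pseudocount of 0.1, scaling to equal column sums and median-ratio scaling each left 0 genes called by limma; unadjusted p under 0.05 was then found for 511 to 1173 genes. With the replicate number as a block, a pairing the labels do not state, limma called 900 of 13817 genes (626 higher and 274 lower in cKO), 4.53% and 1.98% of those tested. Of the genes outside the member list whose adjusted p is given as 0.959 above, BC117090 (0.00726), Tgm3 (0.0024), Ctsc (0.0256), Tgm1 (0.0314) and Ctsw (0.0373) passed under the block. Deviations of the same-numbered control and cKO libraries correlated at r = 0.722 across genes, which are not independent. Leaving out each library gave 9 to 71 calls, with 1 library left in a group that is assumed to vary like the other. The members' median of 0.27 was 0.13 at the 5 FPKM filter, where Stfa2l1 drops out, and 0.01 to 0.52 when each library was left out. The cathepsin and legumain median ranged from -0.18 to 0.11 when each library was left out and from -0.19 to -0.14 under the other alternatives. Ranges without single libraries that include 0 were -0.41 to 0.27 for Stfa1, -0.39 to 0.37 for Stfa3, -0.06 to 0.05 for Cst3, -0.11 to 0.65 for BC100530, -0.68 to 0.07 for Gm5483, -0.07 to 0.31 for Ctsb, -0.15 to 0.10 for Ctsl, -0.57 to 0.29 for Ctsz, -0.44 to 0.17 for Lgmn and -0.28 to 0.27 for Tgm6, which was 0.01 with a pseudocount of 0.1. The cause was not tested. Among the alternatives that keep all libraries, a pseudocount of 0.1 moved Stfa2l1 (0.94), Ctso (-0.69) and Tgm2 (0.46) by more than the spread between libraries. Equal column sums did so for Cst3 (-0.06), Ctsf (-0.23) and Ctsc (0.48). The other differences of single genes kept their direction, and 5 to 26 reads limit Stfa2l1.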
